A study of Mus musculus with 3 samples.

Results

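Receptors for vasoactive agents and hormones were described in cells sorted as renin-producing from the adult mouse kidney. The set holds every gene with a probe set (a group of oligonucleotides read as 1 signal) of 1 gene symbol whose name begins like that of an adrenergic, adenosine, angiotensin, vasopressin, oxytocin, prostanoid, endothelin, sphingosine 1-phosphate, lysophosphatidic acid, P2Y, serotonin, dopamine, muscarinic, calcitonin, bradykinin, calcium-sensing, Mas1, neuropeptide Y, vasoactive intestinal peptide or parathyroid hormone receptor. Within these families genes were taken by name, whatever their signal. This gave 80 probe sets of 79 genes among 19938 genes measured, and 72 of the 79 encode receptors of the G protein-coupled class. The other 7 share only the start of a name or work with such receptors: the accessory proteins Ramp1, Ramp2 and Ramp3, the serotonin-gated ion channel subunits Htr3a and Htr3b, the angiotensin receptor-associated protein Agtrap, and Ptgfrn, an immunoglobulin-domain protein named after the prostaglandin F receptor. Further receptors that such names would cover, those for adenosine among them, were not analysed here.

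The series has 1 group of 3 arrays, replicates 2, 4 and 5. Each holds RNA of cells sorted for yellow fluorescent protein (YFP) from the kidney cortex of adult male Ren1c-YFP mice, a transgenic line of unspecified strain in which the renin gene's regulatory sequence marks renin cells. For 2 weeks all mice drank water with 0.5 mg/ml captopril, which blocks the enzyme that makes angiotensin II, and ate low-salt chow. Every value is therefore a level in treated, sorted cells, with no untreated or unsorted sample beside it, and whether each array is a separate animal is not stated outright, so the spread may be partly technical. In samples of many cells, fewer cells of a type and less RNA per cell cannot be told apart.

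G protein-coupled receptors pass on hormone and transmitter signals through G proteins. Receptors that couple to Gs raise cyclic AMP, which stimulates renin release in juxtaglomerular cells, whereas those that couple to Gi lower it. Receptors that couple to Gq release calcium, which contracts vascular smooth muscle and, unlike in most secretory cells, restrains renin release. In the kidney many of the same receptors also stand on endothelium and tubule, where they set blood flow and the transport of salt, calcium, phosphate and water.

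The arrays were alike in depth of signal, with median log2 signals of 6.09 to 6.21 and pairwise Pearson correlations of 0.962 to 0.972 across genes, which are not independent replicates. Of the measured juxtaglomerular genes 7 of 7 were above background, of smooth muscle markers 11 of 12 and of pericyte and mesangial markers 10 of 10, while the renin gene itself was not analysed here. Markers of cells that the gate should leave out were present as well: 12 of 12 for the proximal tubule, 6 of 6 for the thick ascending limb, 5 of 7 for the distal and connecting tubule, 6 of 7 for principal cells, 8 of 8 for intercalated cells and 9 of 14 for endothelium. The median proximal tubule marker lay 4.56 log2 units above background and the median thick ascending limb marker 3.95. The medians were 4.30 for smooth muscle, 2.66 for juxtaglomerular genes and 2.01 for pericyte and mesangial markers. They were 1.84, 1.68, 1.03 and 0.50 for distal and connecting tubule, principal cells, intercalated cells and endothelium. Podocyte markers passed in 2 of 7 cases, fibroblast markers in 3 of 8 and macrophage and dendritic markers in 3 of 12, shares near or under the 37.3% of all genes that passed the same test. Lymphocyte, nerve, and platelet and erythroid markers passed in 0 of 7, 0 of 7 and 0 of 5 cases by limma's test, also at an unadjusted p under 0.05. Which cells a receptor transcript came from was not tested.

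Most receptor genes of the set were at or under background, and a minority, led by Calcrl, Ednrb, S1pr3, Agtr1a, Pth1r and Casr, stood well above it. Of the 79 genes 19 (24.1%) were above background, against 37.3% of all 19938 genes. The test asked with limma, one-sided and with Benjamini-Hochberg adjustment over all genes at a threshold of 0.05, whether the mean of the 3 arrays exceeded the array's background level, the 95th percentile of 1027 olfactory receptor genes (log2 signals of 6.20, 6.32 and 6.50 in replicates 2, 4 and 5). The median height over that level was -0.38 log2 units in the receptor set and -0.01 over all genes. Among 97 orphan and adhesion receptor genes, 18 (18.6%) were above background, with a median height of -0.44. Of the 72 genes that encode receptors proper 15 passed. In 7 further genes the mean lay above the level without passing, and in 53 it lay under the level, in 46 of them on every array. Signals also depend on probe affinity, so heights are read against background and the order of genes does not rank abundance.

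**Figure D1:**
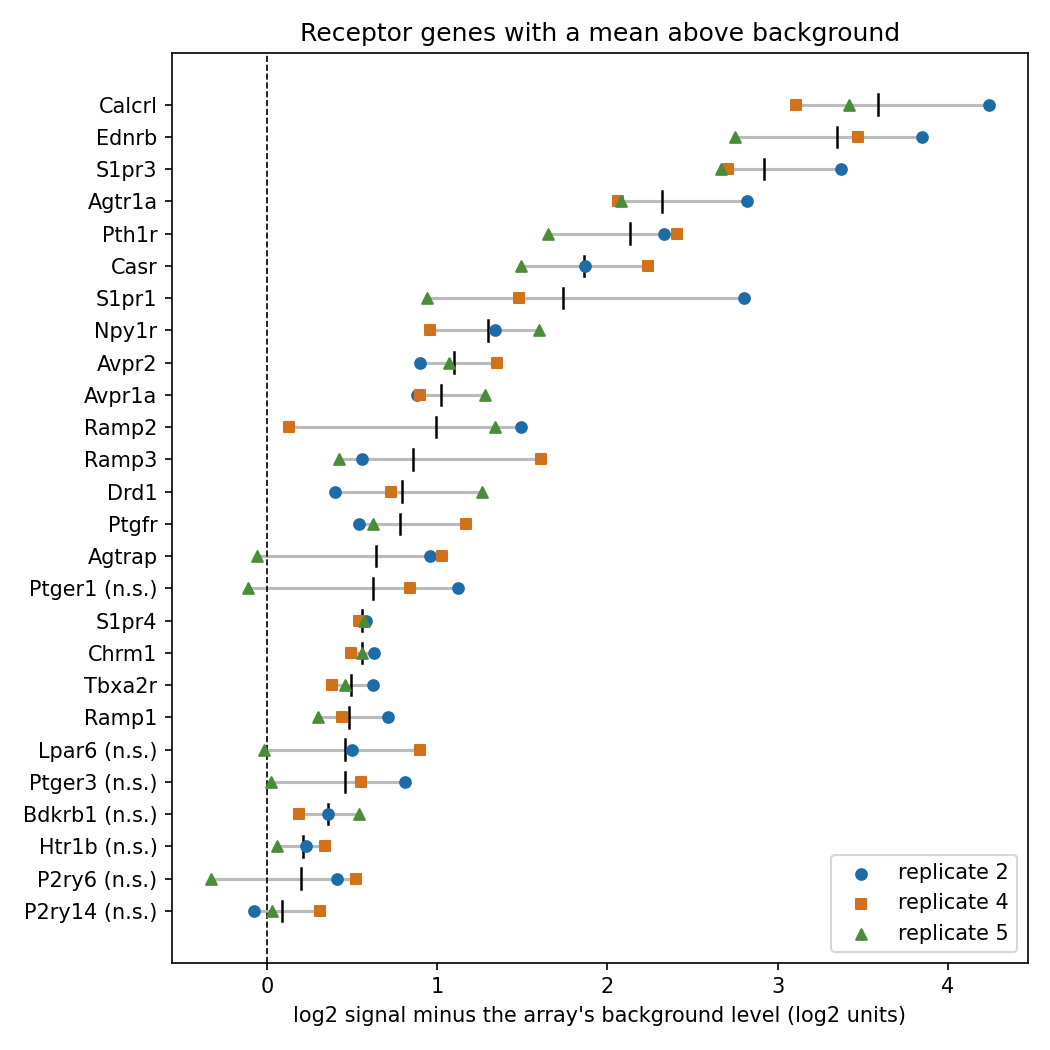
Log2 signal minus the array's background level for the 26 genes of the set with a mean above that level. Each symbol is 1 array, the vertical tick is the mean of 3 arrays, the grey line spans lowest to highest array and the dashed line is the background level, with genes that did not pass limma's test at an adjusted p of 0.05 marked n.s. Calcrl, Ednrb, S1pr3 and Agtr1a have every array more than 2 log2 units above the level. Agtrap, Ptger1, Lpar6 and P2ry6 fall under it in replicate 5, and P2ry14 in replicate 2.

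Among receptors of the vessel wall the highest signals were those of the calcitonin receptor-like, endothelin and sphingosine 1-phosphate receptor genes. Calcrl encodes the receptor that binds adrenomedullin or calcitonin gene-related peptide (CGRP), depending on its accessory protein, and acts through Gs to dilate vessels and, in juxtaglomerular cells, to stimulate renin release. Its log2 signals were 10.44, 9.43 and 9.92 in replicates 2, 4 and 5, a mean of 9.93 ± 0.51 (SD, n = 3 here and below), 3.59 ± 0.29 (SE) above background (limma adjusted p = 1.73e-05). Ednrb, the endothelin receptor of endothelium and collecting duct that clears endothelin and releases nitric oxide, read 10.05, 9.79 and 9.25, 3.35 ± 0.28 (SE) above background (limma adjusted p = 2.34e-05). S1pr3, a sphingosine 1-phosphate receptor of vascular smooth muscle and endothelium, read 9.57, 9.03 and 9.17, 2.92 ± 0.26 (SE) above background (limma adjusted p = 3.08e-05). All 3 genes were highest in replicate 2, and every array lay far above its level. The endothelial list (mean log2 signals of 7.85, 7.03 and 6.98 in replicates 2, 4 and 5) and the juxtaglomerular list (10.04, 9.62 and 9.65) were highest in replicate 2 as well. So were the smooth muscle list (9.99, 9.70 and 9.93) and the pericyte and mesangial list (9.12, 8.91 and 8.93). The podocyte, fibroblast, and platelet and erythroid lists were too, as were 43.8% of all genes above background. The part of these cells was not tested.

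The promoter windows of these 3 genes are shown because their signals were furthest above background. They are from RefSeq on build GRCm38.p6, run 5′ to 3′ from 250 bases before to 50 bases after the annotated gene start, and lie at chr2:84425217-84425516 on the minus strand for Calcrl, chr14:103843652-103843951 on the minus strand for Ednrb and chr13:51408368-51408667 on the plus strand for S1pr3. Capitals mark matches on either strand to TGACG, the half-site of the cyclic AMP response element, or to GGGCGG, the GC box.
Calcrl: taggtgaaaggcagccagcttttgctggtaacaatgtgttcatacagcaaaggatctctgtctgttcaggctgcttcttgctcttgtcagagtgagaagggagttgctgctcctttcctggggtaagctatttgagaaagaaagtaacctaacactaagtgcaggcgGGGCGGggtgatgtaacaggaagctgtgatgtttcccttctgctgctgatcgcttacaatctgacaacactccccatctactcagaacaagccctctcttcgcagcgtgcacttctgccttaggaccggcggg
Ednrb: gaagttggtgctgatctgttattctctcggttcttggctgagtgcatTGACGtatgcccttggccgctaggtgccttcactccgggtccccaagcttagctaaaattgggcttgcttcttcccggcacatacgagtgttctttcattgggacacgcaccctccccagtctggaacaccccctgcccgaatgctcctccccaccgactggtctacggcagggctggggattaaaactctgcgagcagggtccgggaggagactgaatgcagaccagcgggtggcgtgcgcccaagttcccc
S1pr3: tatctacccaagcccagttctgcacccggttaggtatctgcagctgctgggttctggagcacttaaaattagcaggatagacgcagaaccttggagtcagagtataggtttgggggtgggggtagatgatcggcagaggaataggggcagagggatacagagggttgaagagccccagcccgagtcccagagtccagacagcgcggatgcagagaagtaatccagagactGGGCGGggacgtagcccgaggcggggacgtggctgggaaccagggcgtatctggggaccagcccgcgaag
Ednrb holds 1 TGACG, whose first base lies at -203 from the gene start. Calcrl and S1pr3 hold 1 GGGCGG each, with first bases at -83 and -20. Promoters were listed for 67 of the 79 genes, and for 15 of the 19 above background in 19 windows. Of these 19 windows 6 (31.6%) hold TGACG, against 20.8% of all 32851 promoter windows, and 10 (52.6%) hold GGGCGG, against 35.7%. Over the whole set TGACG was found in 12 of 84 windows (14.3%) and GGGCGG in 42. A match describes letters and is no evidence of binding.

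The accessory proteins of Calcrl lay less than 1 log2 unit above background on average, and Ramp2 and Ramp3 varied between arrays while Ramp1 did so little. RAMP proteins carry the receptor to the cell surface and decide whether it answers to CGRP (Ramp1) or adrenomedullin (Ramp2 and Ramp3). Ramp2 read 7.69, 6.45 and 7.84 (limma adjusted p = 0.0127), Ramp3 read 6.76, 7.93 and 6.92 (limma adjusted p = 0.0155) and Ramp1 read 6.91, 6.76 and 6.80 (limma adjusted p = 0.0291). Ramp2 was low in replicate 4 alone and Ramp3 high in replicate 4 alone. All 3 genes were above the level on every array, but the calls were lost in fits of fewer arrays. Ramp2 had a height of 0.74 without replicate 2 (limma adjusted p = 0.0853), against 0.99 with all arrays, and Ramp3 had 0.49 without replicate 4 (limma adjusted p = 0.114), against 0.86. Leaving out replicate 2 gave Ramp1 a height of 0.37 (limma adjusted p = 0.153) and leaving out replicate 4 one of 0.50 (limma adjusted p = 0.108), against 0.48. Calcr, the calcitonin receptor of the distal nephron, stayed under the level on every array (5.25, 5.34 and 5.73).

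S1pr1 and S1pr4 were the other sphingosine 1-phosphate receptor genes above background. S1pr1, which couples to Gi and keeps the endothelial barrier tight, had log2 signals of 9.00, 7.80 and 7.44, a mean 1.74 ± 0.35 (SE) above background (limma adjusted p = 0.00231). Replicate 2 was 1.38 log2 units above the mean of the other arrays. The mean log2 signals of the 14 endothelial markers were 7.85, 7.03 and 6.98, in the same order of arrays, although Tek (6.41, 7.11 and 6.63) and Ehd3 (6.57, 6.73 and 6.84) were lowest in replicate 2, and their part in the S1pr1 signal was not tested. Without replicate 2 S1pr1 still passed. S1pr4, a receptor known from lymphocytes, was near the level with 6.78, 6.86 and 7.07 (limma adjusted p = 0.0122) and its adjusted p by limma was 0.0567 without replicate 2 and 0.0743 without replicate 4, in samples in which 0 of 7 lymphocyte markers passed. S1pr2 (mean 5.84 ± 0.13) and S1pr5 (6.24 ± 0.16) were under the level. Of the 5 lysophosphatidic acid receptor genes none passed limma's test, against 37.3% of all genes, with 1 at an unadjusted p under 0.05. That gene, Lpar6, read 6.70, 7.22 and 6.48 (limma adjusted p = 0.0712), and it passed without replicate 5 (limma adjusted p = 0.0118). Lpar1, Lpar2, Lpar3 and Lpar4 had mean heights of -0.15 to -1.06 log2 units.

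Of the angiotensin group the type 1 receptor was above background and the receptors with opposing actions were not. Agtr1a, the Gq-coupled receptor through which angiotensin II contracts arterioles and inhibits renin release, had log2 signals of 9.02, 8.38 and 8.58, 2.32 ± 0.26 (SE) above background (limma adjusted p = 0.000105). It was highest in replicate 2 and more than 2 log2 units above the level on each array. Agtr2, whose product opposes many type 1 effects, read 5.62, 5.06 and 6.24, under the level on every array although the arrays differed by 1.18. Mas1, a receptor for angiotensin-(1-7), read 5.63, 5.21 and 5.52. Agtrap, whose product promotes internalisation of the type 1 receptor, read 7.16, 7.35 and 6.44 (limma adjusted p = 0.0392), with replicate 5 under the level. Its call was lost when replicate 2 was left out (limma adjusted p = 0.191), when replicate 4 was (0.148) and when limma ran without a variance trend (0.0586).

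Receptors for vasopressin and oxytocin were split between their members. Avpr2, the Gs-coupled receptor that controls water reabsorption in the collecting duct, read 7.10, 7.67 and 7.57 (limma adjusted p = 0.0013). Avpr1a, the Gq-coupled vascular vasopressin receptor, also known from macula densa and intercalated cells, read 7.08, 7.22 and 7.78 (limma adjusted p = 0.00175). Every array lay above its level for both genes, by 1.10 ± 0.20 and 1.02 ± 0.19 log2 units on average (SE). The 7 principal cell markers had mean log2 signals of 7.22, 8.09 and 7.57 in replicates 2, 4 and 5, the same order of arrays as Avpr2. Among them Aqp3 and Aqp4 were lowest in replicate 5, and Scnn1g was highest there. The 8 intercalated cell markers (7.62, 8.15 and 8.05) had the order of Avpr2 as well. Of these, Atp6v0d2 was lowest in replicate 5, and Atp6v1g3 and Slc4a9 were highest there. The part of these cells was not tested. Avpr1b, the pituitary vasopressin receptor (5.51, 5.45 and 6.04), and Oxtr, the oxytocin receptor (6.13, 5.60 and 6.01), stayed under the level on every array.

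The calcium-handling receptors Pth1r and Casr were clearly above background. Pth1r, the receptor for parathyroid hormone and its related peptide, lowers phosphate transport in the proximal tubule and in vessels relaxes smooth muscle through Gs. It read 8.53, 8.73 and 8.15, 2.13 ± 0.26 (SE) above background (limma adjusted p = 0.000152). Casr, the calcium-sensing receptor of the thick ascending limb, which has also been described in juxtaglomerular cells, read 8.07, 8.56 and 7.99, 1.86 ± 0.24 (SE) above background (limma adjusted p = 0.000237). Both were highest in replicate 4 and lowest in replicate 5. The means of the thick ascending limb markers had that order too, with log2 signals of 10.54, 10.85 and 9.92 in replicates 2, 4 and 5. Those of the proximal tubule markers were 10.80, 10.84 and 10.18, with replicates 2 and 4 nearly level. Single markers differed: Cldn10, Cubn, Fbp1, Kap, Miox, Slc22a6 and Slc27a2 were highest in replicate 2. Kcnj1 and Slc22a12 were lowest in replicate 2, and Kap and Slc27a2 in replicate 4. The part of these cells was not tested. Pth2r was under the level (5.30, 5.09 and 5.20).

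Of 8 prostanoid genes 2 were above background, against 37.3% of all genes. Neither of the 2 is a Gs-coupled receptor through which prostaglandins stimulate renin. Ptgfr, the Gq-coupled prostaglandin F receptor, read 6.74, 7.49 and 7.12 (limma adjusted p = 0.00763), and it missed the threshold without replicate 4 (limma adjusted p = 0.0735). Tbxa2r, the thromboxane receptor that contracts vessels, read 6.82, 6.70 and 6.96 (limma adjusted p = 0.023), and it did so without replicate 2 or replicate 4 (limma adjusted p = 0.112 and 0.088). The Gs-coupled receptors Ptger2 (5.57, 5.67 and 5.90) and Ptger4 (5.91, 6.14 and 5.83), which bind prostaglandin E2, were under the level on every array, and the prostacyclin receptor gene Ptgir (6.50, 6.06 and 6.43) was above it in replicate 2 alone.

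Ptger1 and Ptger3 lay just beyond the threshold. Ptger1, a Gq-coupled receptor of prostaglandin E2, read 7.32, 7.16 and 6.39 (limma adjusted p = 0.051), and Ptger3, which couples to Gi and is abundant in the thick ascending limb, read 7.01, 6.87 and 6.52 (limma adjusted p = 0.0597). In both, replicate 5 was lowest, as it was for the thick ascending limb markers (mean log2 signals of 10.54, 10.85 and 9.92). That list was highest in replicate 4, whereas both genes were highest in replicate 2. The proximal tubule list (10.80, 10.84 and 10.18) was lowest in replicate 5 too. So were the endothelial (7.85, 7.03 and 6.98), podocyte (6.88, 6.63 and 6.60) and platelet and erythroid (5.33, 5.24 and 5.15) lists, in the array order of both genes. The part of these cells was not tested. Without replicate 5 Ptger1 and Ptger3 passed (limma adjusted p = 0.00225 and 0.0105), and Ptger1 also passed where the probe sets of each gene were averaged (limma adjusted p = 0.0478). Ptger1 has 1 probe set, so its own signals stayed the same there. The background level fell to 6.19, 6.31 and 6.49 in replicates 2, 4 and 5. Ptgfrn read 5.38, 5.62 and 5.70.

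In the neuropeptide Y, dopamine and muscarinic families 1 of 5 receptor genes each passed, against 37.3% of all genes. Npy1r, the Gi-coupled vascular receptor of the sympathetic co-transmitter neuropeptide Y, read 7.54, 7.28 and 8.10, 1.30 ± 0.22 (SE) above background (limma adjusted p = 0.000874), highest in replicate 5. The other neuropeptide Y receptor genes Npy2r, Npy4r, Npy5r and Npy6r had mean heights of -0.97 to -1.96 log2 units. Drd1, the Gs-coupled dopamine receptor that stimulates renin release and reduces tubular sodium transport, read 6.60, 7.05 and 7.76 (limma adjusted p = 0.00962), and it passed without any 1 of the arrays. Drd2, Drd3, Drd4 and Drd5 had mean heights of -0.12 to -1.35. Chrm1, a Gq-coupled muscarinic receptor, read 6.83, 6.81 and 7.06 (limma adjusted p = 0.0131) and did not pass without replicate 2 or replicate 4 (limma adjusted p = 0.0666 and 0.0681), while Chrm2, Chrm3, Chrm4 and Chrm5 had mean heights of -0.12 to -1.46.

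No serotonin, P2Y, adrenergic, bradykinin or vasoactive intestinal peptide receptor gene passed limma's test, against 37.3% of all genes. The adrenergic, bradykinin and vasoactive intestinal peptide families had 2 measured genes each, too few to set against that share. Beta-adrenergic receptor genes were not among them and were not analysed here. Of 14 serotonin receptor genes none passed, also at an unadjusted p under 0.05, and 13 had means under the level. Htr1b was highest (6.43, 6.66 and 6.56, limma adjusted p = 0.224) and Htr2c lowest (4.53, 4.47 and 4.70). Between them lay Htr1a, Htr1d, Htr1f, Htr2a, Htr2b, Htr3a, Htr3b, Htr4, Htr5a, Htr5b, Htr6 and Htr7, at heights of -0.31 to -1.07. Of 9 P2Y genes, whose products mostly sense extracellular nucleotides, none passed, also at an unadjusted p under 0.05. P2ry6 (6.61, 6.84 and 6.17) and P2ry14 (6.12, 6.63 and 6.53) had means above the level, and P2ry6 passed without replicate 5 (limma adjusted p = 0.0384). P2ry1, P2ry2, P2ry4, P2ry13 and P2ry12, the platelet receptor, had mean heights of -0.29 to -1.73, and the paralogues P2ry10 (3.52, 3.76 and 3.54) and P2ry10b (3.51, 3.84 and 3.64) were furthest below it.

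The remaining families had few measured members. Adra1b, the Gq-coupled adrenergic receptor of vascular smooth muscle, read 5.32, 5.35 and 5.66, and Adra2c, which couples to Gi, read 5.31, 5.27 and 5.41. Their mean heights were -0.90 and -1.01, both lay under the level on every array, and neither had an unadjusted p under 0.05. Bdkrb1, the inducible bradykinin receptor, read 6.56, 6.51 and 7.04 (limma adjusted p = 0.0642, and 0.0469 without a variance trend), and Bdkrb2, the constitutive one, read 6.24, 6.01 and 6.51 about the level. Vipr1 (6.28, 6.13 and 6.31) and Vipr2 (5.92, 6.30 and 6.30), the Gs-coupled receptors of vasoactive intestinal peptide, were close to the level and did not pass. Vipr1 alone had more than 1 probe set, and its other one was lower still, with a mean of 5.82.

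**Figure D2:**
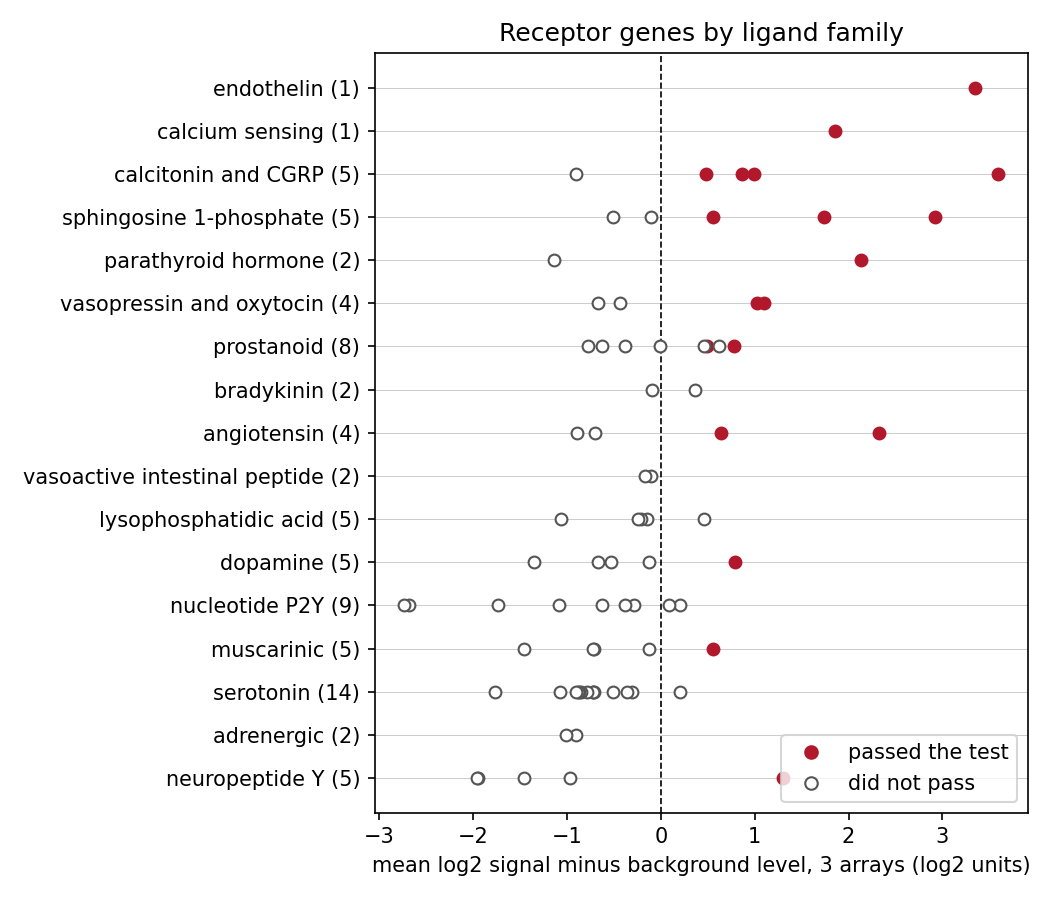
Mean log2 signal minus background level over 3 arrays for each of the 79 genes, in rows by ligand family with the number of genes in brackets. Filled symbols passed limma's test and open symbols did not, and the dashed line is the background level. Filled symbols lie in the endothelin, calcium-sensing, calcitonin and CGRP, sphingosine 1-phosphate, parathyroid hormone, vasopressin, prostanoid, angiotensin, dopamine, muscarinic and neuropeptide Y rows, while all serotonin, P2Y and adrenergic symbols are open.

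By the main G protein they are known to use, 7 of 22 Gq-coupled, 4 of 15 Gs-coupled and 2 of 22 Gi-coupled receptor genes were above background, and 2 of 13 with several or other couplings. Against 37.3% of all genes none of these shares stands high, and their differences were not tested. The Gq members above background were Ednrb, Agtr1a, Casr, Avpr1a, Ptgfr, Chrm1 and Tbxa2r, the Gs members Calcrl, Pth1r, Avpr2 and Drd1, and the Gi members S1pr1 and Npy1r. Median heights were -0.19, -0.38 and -0.69 log2 units for Gq, Gs and Gi.

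Genes that act downstream of these receptors are read against the 37.3% of all genes above background, and differences between these short lists were not tested. Of 12 measured G protein alpha subunit genes 9 passed, the highest being Gnai2 (11.24, 11.02 and 10.29) of the Gi group and Gna11 (9.79, 9.69 and 8.95) of the Gq group, and Gnal (5.00, 4.91 and 4.88), the olfactory Gs form, the lowest. Gnas, the other Gs form, was not among these 12, so its level is not known here. Of 4 phospholipase C beta genes 3 passed, with Plcb1 (8.81, 8.75 and 8.38) and Plcb3 (7.74, 7.40 and 7.27) highest and Plcb2 (5.20, 5.29 and 5.61) lowest. Of 9 adenylyl cyclase genes 5 passed, with Adcy6 (8.33, 7.77 and 7.71), which calcium inhibits, and Adcy4 (7.66, 7.90 and 7.60) highest and Adcy8 (5.00, 4.92 and 5.09) lowest. Of 6 measured receptor kinase and arrestin genes, whose products shut receptors off, 2 passed, Grk5 (7.66, 7.29 and 6.85) and Grk3 (7.68, 7.05 and 6.60), and Grk4 (4.31, 4.06 and 4.16) was lowest.

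Ligand genes and ligand-making enzymes passed at shares near the 37.3% of all genes. Of 19 measured ligand genes 7 passed, with Kng2 (10.08, 10.97 and 9.58), a kininogen of the bradykinin pathway, and Vip (8.92, 8.56 and 8.70) highest and Pth (3.83, 4.26 and 4.10) lowest. Of 17 measured enzyme genes 6 passed, with Entpd1 (10.28, 8.93 and 9.34), which degrades extracellular ATP, and Ddc (8.16, 8.25 and 7.26), which makes dopamine, highest and Hpgds (4.51, 4.88 and 4.77) lowest. Vip was above background in samples in which neither of its receptor genes passed, and Kng2 in samples in which neither bradykinin receptor gene passed. Oxt, Ppy and Pth2 passed as well, although Oxtr, Npy4r and Pth2r did not. In contrast, Edn1 and Npy passed in samples in which Ednrb and Npy1r passed too. Links between ligand and receptor genes were not tested.

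Which array was highest depended on the scale. By height over each array's own background level, the scale of the test, replicate 2 was highest in 10 of the 19 receptor genes above background, replicate 4 in 6 and replicate 5 in 3, and over all 7437 genes above background these shares were 62.1%, 30.3% and 7.65%. By log2 signal it was replicate 2 in 6 receptor genes, replicate 4 in 6 and replicate 5 in 7, and over all genes above background replicate 2 in 43.8%, replicate 4 in 35.4% and replicate 5 in 20.8%. Ramp2, S1pr4, Chrm1 and Tbxa2r were highest in replicate 5 by log2 signal and in replicate 2 by height. By log2 signal, highest and lowest array lay more than 1 log2 unit apart in 5 of the 19 receptor genes (26.3%), against 13.7% of all genes above background, and the median gap was 0.69 against 0.51. The 5 were S1pr1, Ramp2, Drd1, Ramp3 and Calcrl, with gaps of 1.56, 1.39, 1.17, 1.16 and 1.01. S1pr1 and Calcrl were highest in replicate 2, Ramp3 in replicate 4, and Ramp2 and Drd1 in replicate 5. By height 6 receptor genes had such a gap, against 23.6% of all genes above background, with Ednrb (1.10) and Agtrap (1.09) added and Drd1 (0.86) no longer among them. The comparison by height was chosen after seeing the data. With 1 array per sample these gaps have no test.

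**Figure D3:**
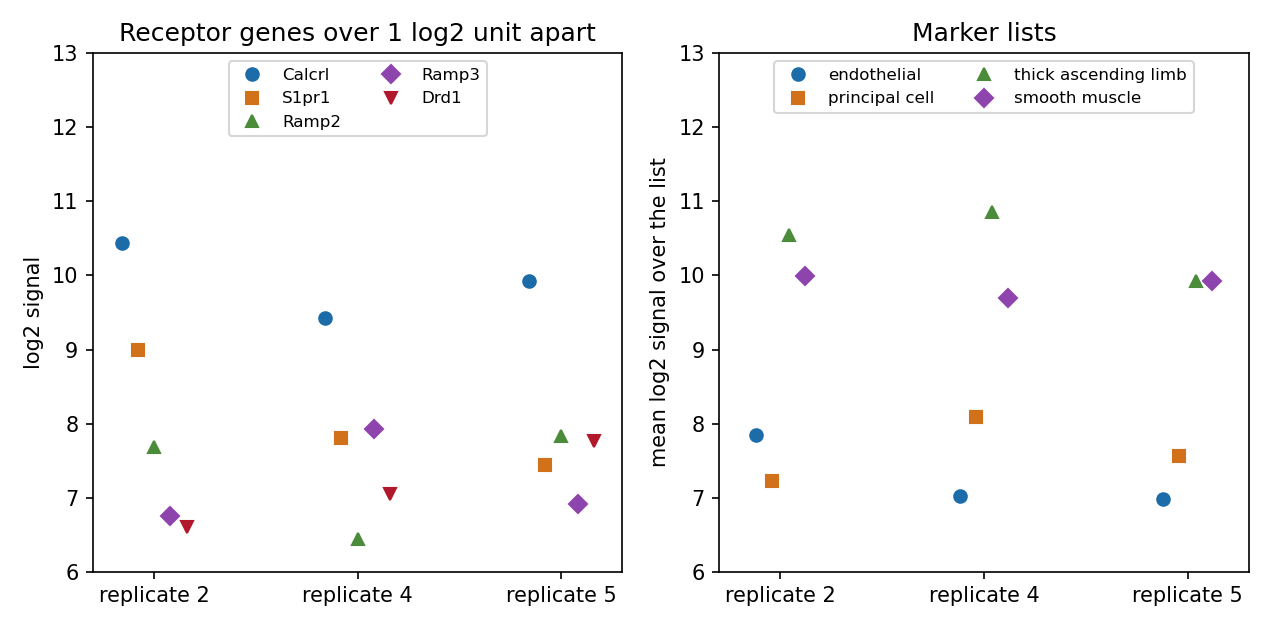
Log2 signals of the 5 receptor genes above background whose arrays lay more than 1 log2 unit apart (left) and mean log2 signals of 4 marker lists (right) in replicates 2, 4 and 5, with 1 symbol per gene or list and array. S1pr1, Calcrl and the endothelial and smooth muscle lists are highest in replicate 2. Ramp3 and the principal cell and thick ascending limb lists are highest in replicate 4, and Ramp2 and Drd1 in replicate 5. The part of these cells in the receptor signals was not tested.

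How many receptor genes counted as above background rested on the background level. With the 99th percentile of olfactory receptor genes 6 of the 79 passed, against 16.6% of all genes, and these 6 were Calcrl, Ednrb, S1pr3, Agtr1a, Pth1r and Casr. With the 95th percentile of 167 vomeronasal receptor genes 45 passed, against 65.9% of all genes, and with that of 44 keratin-associated protein genes 0 passed by limma (2 at an unadjusted p under 0.05), against 3.56%. Without replicate 2, 4 or 5 the count was 13, 12 or 23, against 30.3%, 32.1% and 39.2% of all genes. With the mean of probe sets, without a variance trend and after quantile normalization it was 20, 19 and 19, against 37.1%, 37.3% and 37.7%. In each of these settings the share of receptor genes lay under that of all genes.

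**Figure D4:**
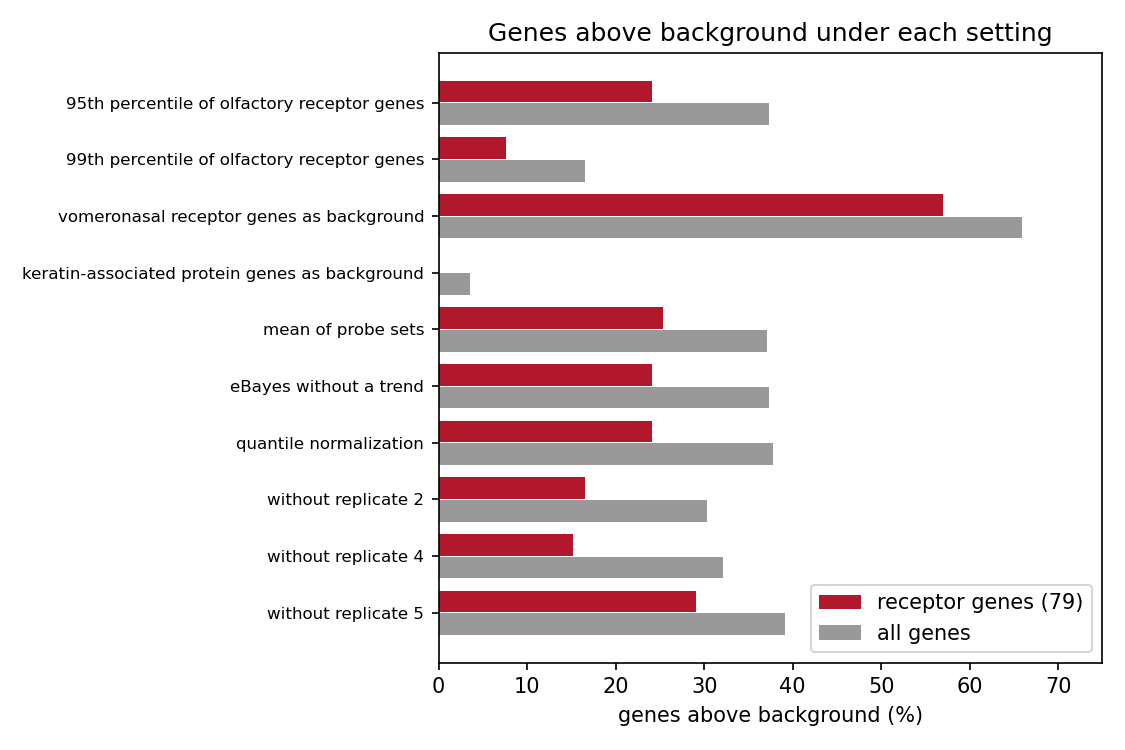
Percentage of genes above background among the 79 genes of the set (red) and among all 19938 genes (grey), under the main setting (top row) and each alternative. Bars start at 0, and the red bar is shorter than the grey one in every row.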

How the data were processed

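The authors deposited 1 log2 signal per probe set and array for 35557 probe sets, and per the submitters' processing notes Affymetrix Expression Console was used. Neither its version nor the summary method and normalization are stated there, and the log2 scale was inferred from values of 2.21 to 13.96. Per the labels' protocols a NuGEN kit was used for 1 round of RNA amplification, with no pooling of samples.

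Probe sets were named from the platform annotation: 21789 had 1 symbol, 1621 several and 12147 none. Those with several were left out, among them 2 that list a gene of the set. Of the named probe sets 21698 matched RefSeq (GRCm38.p6) by Entrez identifier, with 0 symbols changed. The brightest probe set stood for each of the 19938 genes. Log2 signals minus each array's background level were fitted across all genes in R 4.3.3 with limma 3.58.1, taking an intercept as the sole term and a variance trend in eBayes, and tested one-sided with Benjamini-Hochberg adjustment. A keratin-associated or vomeronasal family also served as background. Of olfactory, vomeronasal and keratin-associated genes 2.04%, 1.2% and 22.7% were called. The script was tested on simulated data for all 19938 genes and recovered 82% of those set 0.5 log2 units over background and 100% of those set 1 over it. The genes raised in this way kept the noise of their original signals under the level. That noise was mostly smaller than at the heights they were set to, so these shares may be too high. The number of arrays, 3, limits the precision. Text values follow a naming rule that takes every gene of the set and, of each downstream list, the 2 highest and the lowest. Marker lists are given by their counts. The receptor families, and so the members, as well as the lists and tests were chosen with earlier results of these data known; within the families genes were taken by name alone. Tables were handled with pandas 2.3.3 and numpy 2.4.6 in Python 3.11.15, and figures drawn with matplotlib 3.10.9.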

Additional observations from a re-analysis of the deposited data

How the results depend on the processing

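The count of 19 receptor genes was 6 with the 99th percentile of olfactory receptor genes, 45 with a vomeronasal and 0 with a keratin-associated background, and 12 to 23 with 1 replicate left out. These levels differ by construction, and the cause of the other changes was not tested. The 5 genes with arrays over 1 log2 unit apart stayed 5 after quantile normalization. By height over each array's own level, an alternative chosen after seeing the data, 6 had such a gap. Averaging probe sets also left 5, but it could not change them, because each of the 5 has 1 probe set. Relative to the 99th percentile, means fell to -0.0006 for Ramp3, -0.069 for Drd1, -0.088 for Ptgfr, -0.22 for Agtrap, -0.30 for S1pr4, -0.30 for Chrm1, -0.38 for Tbxa2r and -0.38 for Ramp1. Relative to the keratin-associated level they were -0.0086 for Agtr1a, -0.20 for Pth1r, -0.46 for Casr, -0.59 for S1pr1, -1.03 for Npy1r, -1.22 for Avpr2, -1.31 for Avpr1a, -1.34 for Ramp2, -1.46 for Ramp3, -1.53 for Drd1, -1.55 for Ptgfr, -1.68 for Agtrap, -1.76 for S1pr4, -1.77 for Chrm1, -1.84 for Tbxa2r and -1.85 for Ramp1. That family itself was called in 22.7% of its 44 genes, so it holds probe sets with signal. The 99th percentile also ended the calls of S1pr1, Npy1r, Avpr2, Avpr1a and Ramp2 (limma adjusted p = 0.103, 0.167, 0.539, 0.847 and 1). Fits with 1 array left out rest on 2 arrays and lean on the pooled variance. No paired analysis was possible because the series has 1 group. Signals just above the level may miss the threshold with 3 arrays.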
